A study of Homo sapiens with 4 samples.

Results

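Classical cadherins and the catenins that bind them were followed through 7 genes: the cadherins CDH1 (E-cadherin), CDH2 (N-cadherin) and CDH3 (P-cadherin), the catenins CTNNA1 (alpha-catenin), CTNNB1 (beta-catenin) and CTNND1 (p120-catenin), and VCL (vinculin). They were taken by gene name from the 19577 genes with a unique molecular identifier (UMI) in the series. All 7 had a row in low-resolution replicate 1, and 6 had one in each of the other 3 plates, where CTNND1 was absent. MCF10A is an untransformed human mammary epithelial cell line, here carrying an H2B-GFP marker and grown for 6 days from a circular patch on fibronectin, in medium with EGF, hydrocortisone, cholera toxin and insulin. In the 2 low-resolution patches, 3 concentric rings of 1000 to 1500 μm were phototagged, and in the 2 high-resolution patches the outermost band and the next band of 250 μm were phototagged, with the inside as the remaining region. Live cells of each patch were sorted into 1 plate of 384 wells and sequenced by SORT-seq, so the plate is the replicate (n = 2 per experiment). Which region a well came from was not analysed here. Every value covers the cells of a whole plate together.

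Classical cadherins are transmembrane proteins that bind the same kind of cadherin on the neighbouring cell through their extracellular repeats. Their cytoplasmic tails hold p120-catenin, which keeps cadherins at the membrane, and beta-catenin, which also acts as a transcriptional coactivator in Wnt signaling. Beta-catenin binds alpha-catenin, the link to actin, and vinculin joins alpha-catenin under tension and also sits in focal adhesions. The exchange of E-cadherin for N-cadherin, called cadherin switching, is a classic sign of the epithelial-to-mesenchymal transition (EMT), while P-cadherin marks the basal and myoepithelial cells of the breast.

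In the GENCODE 29 annotation of GRCh38, the genome build named in the submitters' processing notes, CDH1 (chr16:68737225-68835548, plus strand) lies 14608 bases downstream of CDH3 (chr16:68636189-68722616, plus strand). CDH2 is at chr18:27950966-28177446 on the minus strand. CTNNA1 (chr5:138610967-138935034), CTNNB1 (chr3:41194741-41260096), VCL (chr10:73995193-74121363) and CTNND1 (chr11:57753243-57819546) are on the plus strand. CTNND1 shares its strand and much of its locus with the readthrough gene TMX2-CTNND1. Only 2 CTNND1 UMIs were found, both in low-resolution replicate 1, and no level of it was read. Whether reads shared with the readthrough gene bear on this was not tested.

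RefSeq promoter windows (GRCh38.p14) were found for 4 of the 7 members, CDH2, CTNNA1, CTNNB1 and VCL. The 250 bases before the start are shown for the members that rose with the EMT score in the cells described further on, since SNAI, ZEB and TWIST family repressors and activators bind E-boxes (CANNTG, the same pattern on both strands). Capitals mark an E-box. The windows are chr18:28177131-28177380 and chr18:28036642-28036891 for the upstream and the downstream start of CDH2 (both minus strand), chr3:41199255-41199504 for CTNNB1 and chr10:73997866-73998115 for VCL (both plus strand).
CDH2, upstream start: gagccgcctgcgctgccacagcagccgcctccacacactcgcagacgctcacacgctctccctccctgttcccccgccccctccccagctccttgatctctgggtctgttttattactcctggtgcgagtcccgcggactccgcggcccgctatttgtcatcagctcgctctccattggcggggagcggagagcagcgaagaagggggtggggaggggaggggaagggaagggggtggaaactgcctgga
CDH2, downstream start: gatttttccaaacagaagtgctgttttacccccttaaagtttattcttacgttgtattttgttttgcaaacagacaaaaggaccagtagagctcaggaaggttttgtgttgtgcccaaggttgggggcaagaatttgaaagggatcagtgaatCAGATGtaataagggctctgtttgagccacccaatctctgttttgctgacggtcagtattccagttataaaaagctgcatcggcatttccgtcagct
CTNNB1: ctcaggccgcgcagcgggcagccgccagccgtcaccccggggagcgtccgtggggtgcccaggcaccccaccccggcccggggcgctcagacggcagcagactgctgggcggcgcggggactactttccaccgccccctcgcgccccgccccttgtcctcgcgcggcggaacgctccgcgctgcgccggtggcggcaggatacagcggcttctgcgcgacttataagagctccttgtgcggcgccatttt
VCL: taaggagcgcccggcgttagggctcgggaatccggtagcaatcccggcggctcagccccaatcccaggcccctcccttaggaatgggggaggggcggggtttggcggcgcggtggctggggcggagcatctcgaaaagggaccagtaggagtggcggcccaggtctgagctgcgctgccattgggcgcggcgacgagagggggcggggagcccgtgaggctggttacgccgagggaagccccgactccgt
Of these 4 windows, the one at the downstream start of CDH2 held an E-box, CAGATG, which began 97 bases before the start. CTNNA1, which fell with the score, is not shown, and some of its windows also held E-boxes (CAGCTG and CAGATG). Over all 8 windows of the members, 3 held an E-box. Across all 35116 windows of this length in the table, 61.8% held at least 1 E-box. These matches describe the letters of the windows and no binding was measured.

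The study's limits on cells, 2000 to 9000 detected features and under 40% mitochondrial counts, left 291 cells of low-resolution replicate 1, 271 of low-resolution replicate 2, and 291 and 293 for the pair of high-resolution patches, or 1146 of 1536 wells. These are fewer cells than the study analysed in either experiment, and the difference was not resolved. A cell held a median of 29185 to 39240 UMIs in the 4 plates, the 2 low-resolution plates being the shallower ones, so how many cells showed a gene was counted after thinning every cell to 10000 UMIs. Of 10 epithelial markers, 9 had a UMI in over 5% of cells of every plate, and their summed level was 53.1 to 72.0 UMIs per 10000. The summed levels of the fibroblast, endothelial, immune and neural marker lists stayed within 0.0664 to 0.132, 0.188 to 0.233, 0.258 to 0.594 and 0.746 to 0.898 UMIs per 10000. The same 5% share was passed by 1 of 6 fibroblast, 2 of 5 endothelial, 2 of 6 immune and 1 of 4 neural markers. LUM, CLDN5, SOX10 and GFAP had no UMI in any cell. The plates use the same 384 well barcodes, and low-resolution replicate 1 was on another flow cell than the other 3 plates.

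Over the cells of a plate, CDH1 was the most abundant of the 3 cadherins and CTNNA1 the most abundant of all members. Levels are UMIs of a gene per 10000 UMIs of the plate, counted at transcript 3′ ends and therefore without a length correction. CTNNA1 stood at 3.65 ± 0.292 (SD, n = 4 plates), VCL at 1.02 ± 0.0551, CDH1 at 0.585 ± 0.165, CTNNB1 at 0.522 ± 0.0609, CDH3 at 0.265 ± 0.0461 and CDH2 at 0.0180 ± 0.00533 UMIs per 10000. The order of CDH1 and CTNNB1 differed between plates, since CDH1 was above CTNNB1 in both low-resolution plates and below it in both high-resolution plates. All other neighbours in this order were separated in each plate. CTNNA1 had 5.83 to 8.14 times the level of CTNNB1.

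Whether the patches of the 2 experiments differed in cadherins and catenins was asked by summing the cells of each plate. CDH1 fell in the high-resolution experiment, and the other 5 members that could be tested did not pass the threshold. The level of CDH1 was 0.741 (replicate 1) and 0.712 (replicate 2) UMIs per 10000 at low resolution, but 0.448 and 0.437 at high resolution. Both low-resolution plates were above both high-resolution plates. In edgeR's quasi-likelihood test with Benjamini-Hochberg adjustment over 12437 genes, the log2 fold change of CDH1 was -0.68 (SE 0.12, adjusted p = 0.0032). In this test 12.4% of all genes were called (adjusted p under 0.05), 6.26% higher and 6.18% lower, and of the 6 members tested 1 was called, lower. Low-resolution replicate 1 differed from the rest in flow cell, and without it the fold change was -0.69 (adjusted p = 0.0122 by the same test, with the spread taken from the high-resolution pair alone). The bands were cut differently in the 2 experiments, so the experiment and the makeup of the plates by region cannot be told apart.

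CDH2 was close to the limit of detection in every plate. Low-resolution patches gave 15 and 12 UMIs of it and high-resolution patches 26 and 30, or 0.0152, 0.0119, 0.0227 and 0.0222 UMIs per 10000. The high-resolution plates were both above the low-resolution plates, but with so few UMIs the log2 fold change of 0.76 (SE 0.37) did not pass the test (edgeR quasi-likelihood, Benjamini-Hochberg adjusted p = 0.20).

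CDH3 differed more between replicates than between experiments. Low-resolution patches had 0.221 and 0.306 UMIs per 10000 of CDH3 and high-resolution patches 0.228 and 0.303, and the groups overlapped. The log2 fold change was 0.04, with a 95% interval of -0.33 to 0.42. The ratio of CDH1 to CDH3 was therefore 3.35 and 2.32 at low resolution against 1.96 and 1.44 at high resolution, without overlap.

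Of the catenins, CTNNA1 was at 4.02 and 3.73 UMIs per 10000 at low resolution and at 3.47 and 3.37 at high resolution. These groups did not overlap, yet the log2 fold change of -0.15 (SE 0.10) did not pass the test (adjusted p = 0.39, edgeR quasi-likelihood with Benjamini-Hochberg adjustment). CTNNB1 was at 0.570 and 0.458 at low resolution and at 0.481 and 0.577 at high resolution, with overlapping groups and a log2 fold change of 0.08 (95% interval -0.19 to 0.35). VCL was at 1.00 and 0.965 at low resolution and at 1.09 and 1.00 at high resolution. The lower high-resolution plate was close to the higher low-resolution plate, and the log2 fold change was 0.13 (95% interval -0.09 to 0.35).

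**Figure D1:**
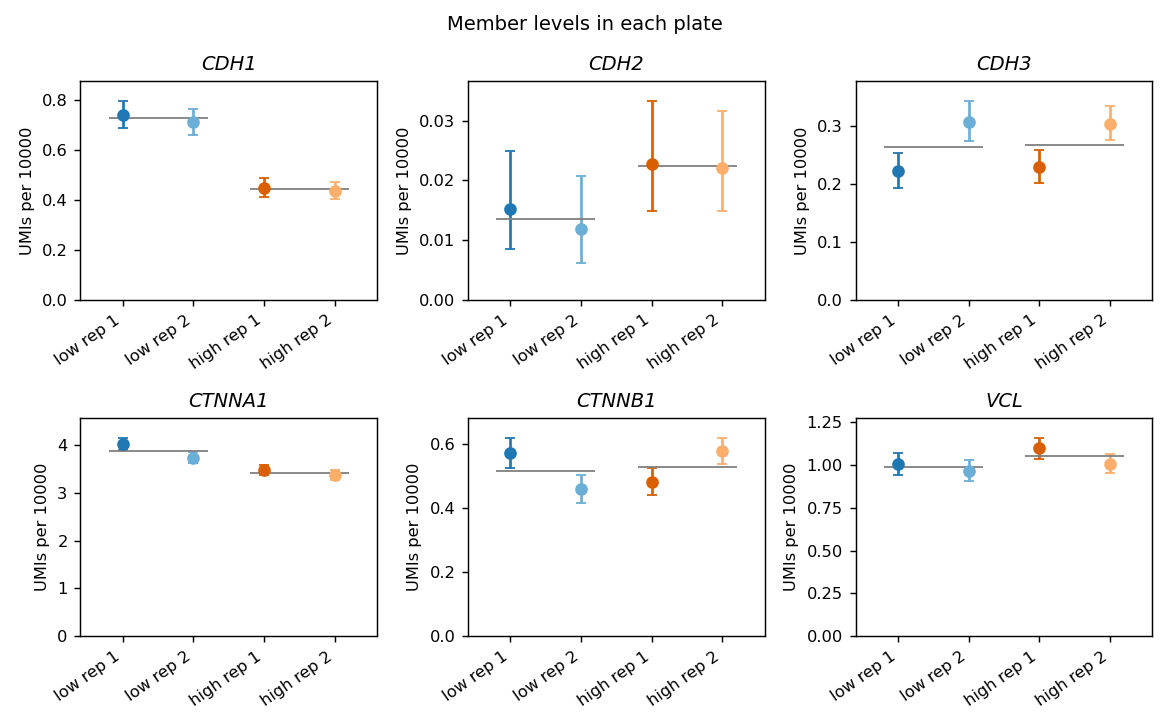
Level of each member (UMIs per 10000, vertical axis from 0) in the 4 plates, with exact Poisson 95% intervals that cover counting error only and a grey line at the mean of each experiment. CDH1 sits at 0.741 and 0.712 at low resolution and at 0.448 and 0.437 at high resolution, while CDH3 is split by replicate.

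A plate sum does not show how CDH1 was spread over the cells, so the cells were counted at a depth of 10000 UMIs. CDH1 was found in 43.2% (exact binomial 95% interval 37.4% to 49.2%) and 43.7% (37.6% to 49.8%) of low-resolution cells, and in 27.5% (22.4% to 33.0%) and 30.9% (25.7% to 36.6%) of high-resolution cells. The intervals, which cover counting error only, did not overlap between experiments. Cells with CDH1 held 1.80 and 1.68 CDH1 UMIs on average at low resolution, against 1.53 and 1.47 at high resolution. With so few UMIs per cell, a lower level lowers both measures. These counts therefore do not tell fewer cells with CDH1 from less CDH1 in each cell. At full depth the share of cells with CDH1 was 61.9% and 65.7% against 47.8% and 52.2%, and single cells reached 13 to 20 CDH1 UMIs in each plate.

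CDH3 was found in 17.4% and 26.1% of low-resolution cells and in 19.7% and 27.5% of high-resolution cells at 10000 UMIs, so the shares overlapped between experiments. CDH2 was found in 1.05%, 1.87%, 2.46% and 1.72% of cells at this depth. At full depth 3.78%, 3.69%, 7.22% and 8.53% of cells had a CDH2 UMI, at most 3 UMIs in a cell. CTNNA1 was near saturation, with a UMI in 95.4% to 98.3% of cells at 10000 UMIs, and VCL was found in 64.2% to 71.8% and CTNNB1 in 37.1% to 44.3%.

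Cadherins were then set against each other cell by cell. CDH1 and CDH3 were found together more often than the product of their shares, and CDH1 and CDH2 less often. At full depth, 97, 125, 94 and 122 cells had UMIs of both CDH1 and CDH3 in low-resolution replicates 1 and 2 and high-resolution replicates 1 and 2, where the product of the shares gave 74.8, 92.6, 61.6 and 86.2 cells. Cells with both CDH1 and CDH2 numbered 5, 3, 2 and 6, where the product gave 6.80, 6.57, 10.0 and 13.1. All 4 plates deviated upwards for the first pair and downwards for the second. CDH2 and CDH3 were found together in 5, 2, 7 and 11 cells, where the product gave 4.57, 5.20, 9.31 and 14.1, which was above the product in 1 plate and below it in 3. At 10000 UMIs, 0 of 1130 cells had both CDH1 and CDH2, where the product of the shares summed over plates gave 6.95 cells. The 0 allows a share of up to 0.265% of cells with a UMI of both at this depth. Cells with both were thus fewer than the product at this depth as well as at full depth. At full depth 16 of 1146 cells had both, so the 0 does not show that no cell expresses both. No test was made of these counts, because cells are not replicates.

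**Figure D2:**
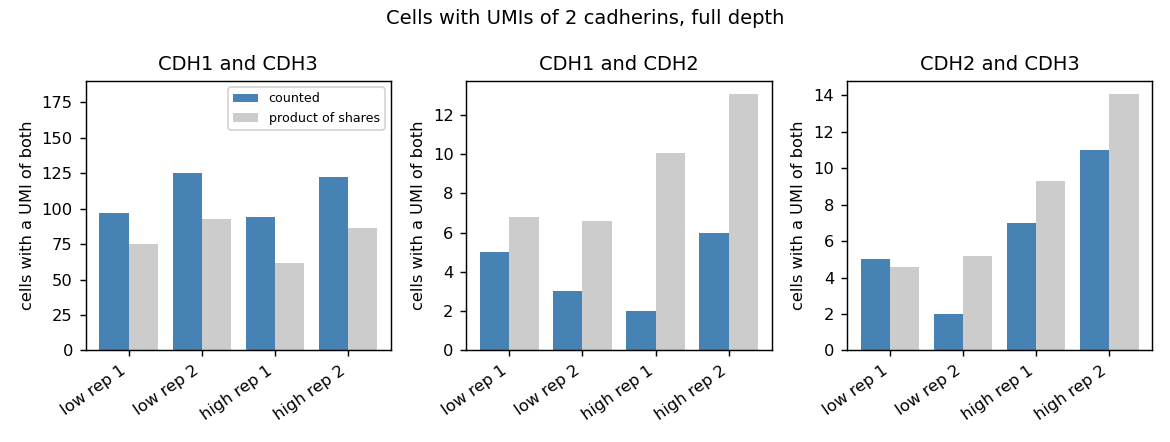
Number of cells per plate with a UMI of both named cadherins at full depth (blue, vertical axes from 0, a separate scale for each pair) and the number given by the product of the 2 shares in that plate (grey). CDH1 and CDH3 exceed the product in 4 of 4 plates, and CDH1 and CDH2 stay under it in 4 of 4 plates.

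Cells with a CDH2 UMI were low in CDH1. At full depth these were 11, 10, 21 and 25 cells per plate, and their CDH1 level was 0.171, 0.138, 0.0943 and 0.187 UMIs per 10000, against 0.770, 0.742, 0.477 and 0.467 in the cells without CDH2. CDH1 was lower in the cells with CDH2 in 4 of 4 plates, by 0.466 ± 0.162 on average (SD, n = 4). The exact two-sided sign-flip permutation test over the plates gave p = 0.125, the smallest that 4 plates allow. CDH3 was lower in the same cells in 4 of 4 plates as well, with means of 0.152 and 0.274 UMIs per 10000. At 10000 UMIs the 20 cells with CDH2 held no CDH1 UMI and 1 of them held CDH3. Cells with CDH2 had a higher median depth at full depth in every plate (34260 to 53735 UMIs, against 28752 to 38121), a difference that raises the chance of finding any gene.

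Across cells within a plate, log-normalized CDH1 followed CDH3. Spearman rho was 0.323 (291 cells) and 0.460 (271 cells) at low resolution, against 0.499 (291 cells) and 0.526 (293 cells) at high resolution, given as a description of cells that share a library. CDH1 ran against CTNNB1 (mean rho -0.276 ± 0.093, SD, n = 4 plates) and VCL (-0.253 ± 0.095), and weakly with CTNNA1 (0.232 ± 0.106). The rho of CDH1 with CDH2 was -0.168 ± 0.035, and with UMIs of CDH2 in so few cells its size says little. At 10000 UMIs per cell the mean rho of CDH1 was 0.198 with CDH3, -0.164 with CTNNB1, -0.113 with VCL and 0.122 with CTNNA1, and its rho with VCL was 0.041 in low-resolution replicate 2. Among cells in the lowest, middle and highest tertile of the EMT score, the mean rho of CDH1 and CDH3 was 0.104, 0.351 and 0.143, against 0.452 over all cells, and in the highest tertile it ran from -0.062 to 0.407 over the plates.

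To place each member on the path from epithelial to mesenchymal cells, cells were ordered by the EMT score of the study, an M score for mesenchymal genes minus an E score for epithelial genes, computed for each experiment with the members and all other junction, repressor and activator genes discussed here left out. From the lowest to the highest tertile of each plate, CDH1 and CDH3 fell, CTNNA1 fell slightly, and CDH2, CTNNB1 and VCL rose. All 6 members tested were called by edgeR's quasi-likelihood test with the plate as a block, where 41.3% of the 11319 genes tested were called, 20.6% higher and 20.8% lower. The cells were ordered by genes that vary together across them, so these changes describe how the members follow the score.

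CDH1 fell from 1.32, 1.16, 0.940 and 0.919 UMIs per 10000 in the lowest tertile of low-resolution replicates 1 and 2 and high-resolution replicates 1 and 2 to 0.0830, 0.0761, 0.0216 and 0.0246 in the highest. The lowest and highest tertiles did not overlap, and the middle tertile lay between them in 4 of 4 plates. The log2 fold change was -4.57 (SE 0.19, adjusted p = 1.2e-09), or 23.7-fold lower, and 51 of 11319 genes fell further. In the lowest tertile 90.8% to 92.8% of cells had a CDH1 UMI at full depth, and in the highest tertile 19.6% and 18.9% at low and 8.25% and 11.3% at high resolution.

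CDH3 fell less than CDH1. Its level went from 0.296, 0.362, 0.387 and 0.484 UMIs per 10000 in the lowest tertile to 0.101, 0.0951, 0.0594 and 0.0715 in the highest, with no overlap. The log2 fold change was -2.34 (SE 0.19, adjusted p = 4.7e-07, edgeR quasi-likelihood with Benjamini-Hochberg adjustment), or 5.05-fold lower. In quintiles of the score, CDH3 peaked in the lowest quintile of high-resolution replicate 1, in the second quintile of low-resolution replicate 1 and high-resolution replicate 2 and in the third quintile of low-resolution replicate 2, whereas CDH1 was highest in the lowest quintile of every plate.

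CDH2 was found almost only towards the mesenchymal end. Over the 4 plates the lowest tertile held 2 CDH2 UMIs, the middle 19 and the highest 62. Per plate the highest tertile held 11, 12, 18 and 21 UMIs, and the lowest held none except for the 2 in high-resolution replicate 2. Pooled over plates, the level in the highest tertile was 34.6 times that in the lowest, with an exact counting interval of 9.18 to 292. The ratio rests on high-resolution replicate 2, where it was 10.4, since the lowest tertile of the other 3 plates was at 0. CDH2 passed edgeR's quasi-likelihood test (Benjamini-Hochberg adjusted p = 6.6e-05), whose fitted fold change depends on the prior count and is not read here. Even in the highest tertile only 7.22% to 16.5% of cells had a CDH2 UMI at full depth.

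As CDH1 fell faster than CDH3 and CDH2 stayed low, the makeup of the cadherin UMIs changed along the score. CDH1 made up 81.7%, 76.2%, 70.8% and 65.3% of the UMIs of the 3 cadherins in the lowest tertile of the plates in the order above, and 38.0%, 36.4%, 16.7% and 17.2% in the highest. CDH3 was the largest part in the highest tertile of all 4 plates, with 46.5%, 45.5%, 45.8% and 50.0%, and CDH2 made up 15.5%, 18.2%, 37.5% and 32.8%. The share of CDH3 among CDH1 and CDH3 UMIs rose by 38.1 ± 5.25 percentage points (SD, n = 4), higher in 4 of 4 plates (exact two-sided sign-flip permutation test, p = 0.125, the smallest possible). These shares of the highest tertile rest on 48 to 71 cadherin UMIs per plate.

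**Figure D3:**
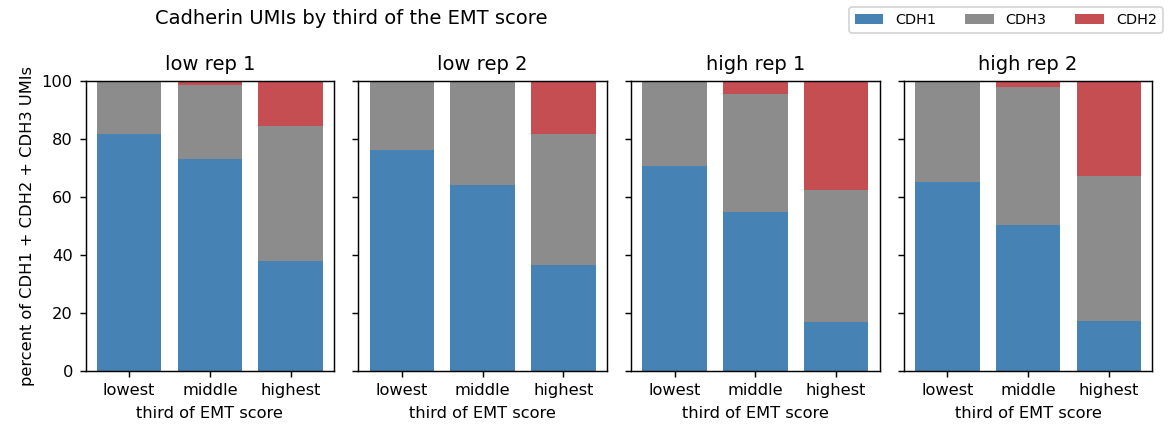
Percent of the CDH1, CDH3 and CDH2 UMIs (stacked, 0 to 100%) in the lowest, middle and highest tertile of the EMT score of each plate. CDH1 makes up 65.3% to 81.7% in the lowest tertile, and CDH3 is the largest part in the highest tertile with 45.5% to 50.0%.

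The catenins moved by far less than the cadherins and not in 1 direction. CTNNA1 went from 4.43, 4.32, 3.90 and 3.65 UMIs per 10000 in the lowest tertile to 3.57, 2.94, 3.39 and 3.26 in the highest, with no overlap. Its log2 fold change was -0.40 (SE 0.08, adjusted p = 0.0017), and in both high-resolution plates the middle tertile was the lowest. CTNNB1 rose from 0.418, 0.362, 0.338 and 0.342 in the lowest tertile to 0.750, 0.691, 0.653 and 0.872 in the highest, with no overlap and a log2 fold change of 0.93 (SE 0.11, adjusted p = 1.4e-05). VCL rose from 0.745, 0.785, 0.684 and 0.777 to 1.25, 1.22, 1.54 and 1.30, again with no overlap, by a log2 fold change of 0.74 (SE 0.10, adjusted p = 4.6e-05). All 3 adjusted p-values are Benjamini-Hochberg values of the edgeR quasi-likelihood test above. VCL rose from the second to the third quintile in all 4 plates, as the plot of levels by score shows. In low-resolution replicate 1 it had already risen from 0.707 to 0.809 between the first and the second quintile.

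**Figure D4:**
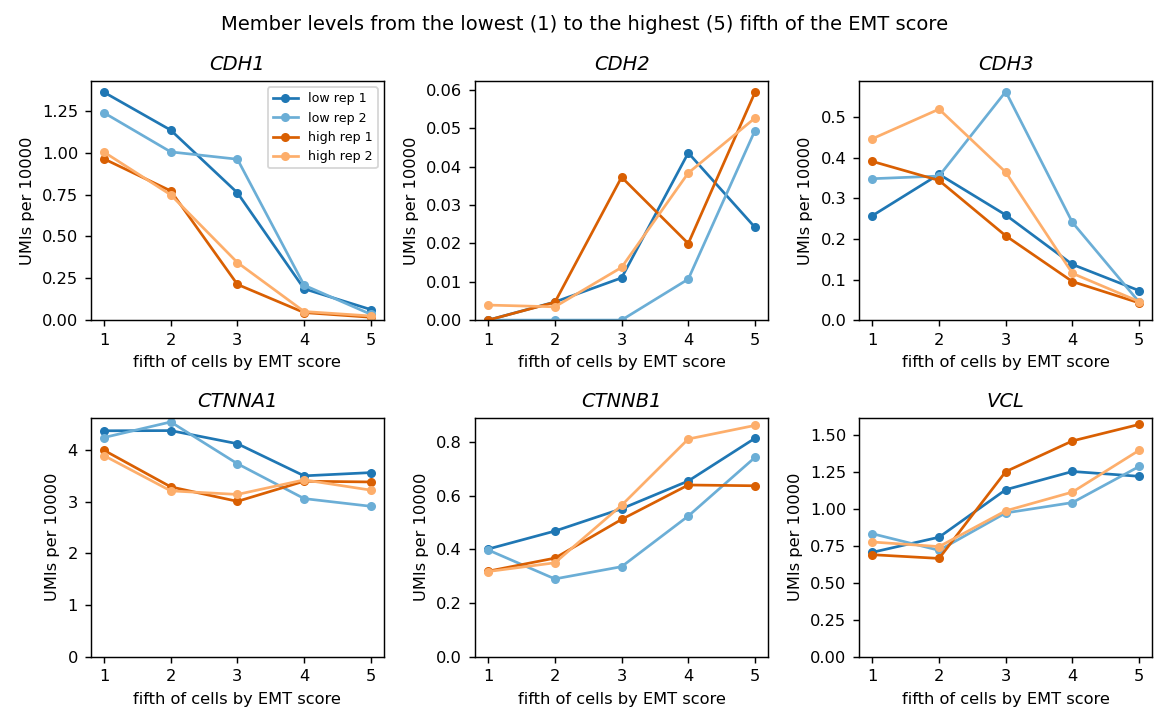
Level of each member (UMIs per 10000, vertical axes from 0) in quintiles of the cells of each plate, from the lowest (1) to the highest (5) EMT score, with 1 line per plate. CDH1 falls from between 0.963 and 1.36 in quintile 1 to between 0.0170 and 0.0629 in quintile 5, and VCL rises from between 0.690 and 0.832 to between 1.22 and 1.57.

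The score also moved with the state of the cells. Its mean rho over plates was -0.397 with the mitochondrial percentage, 0.206 with the G2/M score, 0.124 with the S score and -0.064 with depth. The median mitochondrial percentage was 31.7% to 33.6% in the lowest tertiles and 25.9% to 29.3% in the highest, and 60.8% to 80.2% of cells in the lowest and 39.2% to 67.8% in the highest were called G1. Among G1 cells alone, the log2 fold changes were -4.39 for CDH1, -1.90 for CDH3, -0.44 for CTNNA1, 0.96 for CTNNB1 and 0.70 for VCL, all still called, and CDH2 did not pass the filter on low counts. With mitochondrial genes left out of the counts, all 6 members kept their direction and their call.

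Both experiments showed the same directions, and CDH1 fell further along the score in the high-resolution patches. The difference of its log2 fold change, high minus low resolution, was -1.34 (SE 0.34, adjusted p = 0.0443, edgeR quasi-likelihood with Benjamini-Hochberg adjustment), in a test that called 2.53% of 11319 genes, 0.804% higher and 1.72% lower, and 1 of the 6 members. It rests on 27 and 24 CDH1 UMIs in the highest tertile at low resolution, and 8 and 11 at high resolution. It lost the call without any 1 of the 4 plates (-1.23 to -1.47), among G1 cells (-0.74), in quartiles (-1.18), without the mitochondrial limit (-1.26) and at 10000 UMIs (-1.46). For CDH3 the difference was -0.99 (SE 0.29, adjusted p = 0.086 by the same test), and the other 4 members tested had adjusted p-values of 0.25 to 0.60. The CDH1 level was lower in both high-resolution plates than in both low-resolution plates within each tertile, although the tertiles of the 2 experiments were cut on separately computed scores.

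**Figure D5:**
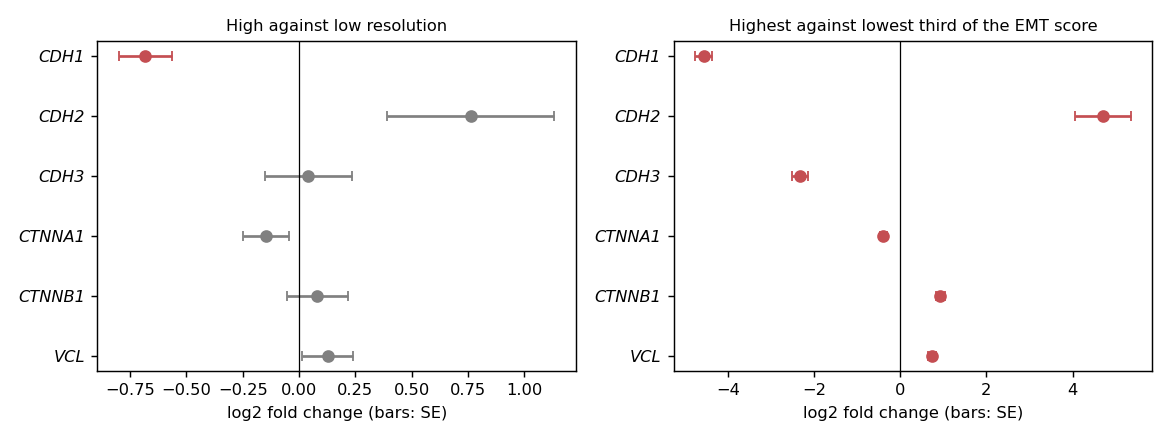
Log2 fold changes of the 6 members tested, with standard errors (bars), for high against low resolution (left) and for the highest against the lowest tertile of the EMT score (right), on separate scales, with members past the threshold in red. CDH1 alone passes on the left at -0.68, and all 6 pass on the right, with CDH1 lowest at -4.57. The fitted value of CDH2 on the right depends on the prior count and is not read.

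Other genes listed with the adherens junction moved in both directions along the score. Of 32 further junction genes, 28 were tested, and 10 rose, 8 fell and 10 were not called from the lowest to the highest tertile, where 20.6% of all genes rose and 20.8% fell (median log2 fold change 0.06, against 0.00 over all genes). Among those that rose, ACTN1 (alpha-actinin-1, an actin crosslinker) went from 1.77 to 4.43 UMIs per 10000, ZYX (zyxin) from 1.88 to 4.63 and TLN1 (talin-1) from 1.12 to 2.20. TLN1 is a focal adhesion protein that was counted in this list, and ACTN1 and ZYX also sit in focal adhesions. NECTIN3, a nectin adhesion receptor, rose from 0.0261 to 0.244. The steepest falls were in CAMSAP3, which anchors microtubule minus ends at epithelial junctions (0.0761 to 0.00950), the receptor phosphatase PTPRF (1.12 to 0.206), NECTIN4 (0.197 to 0.0345) and LMO7, an afadin-binding protein (1.55 to 0.410). Between the experiments, 2 of the 28 rose (ACTN1 and ZYX, by 0.84 and 0.66 on the log2 scale) and 5 fell, among them PLEKHA7, PTPRF and LMO7, beside 6.26% and 6.18% of all genes. PLEKHA7 lost the call in 2 of 11 alternatives.

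Of 15 other cadherins, 10 had a UMI in the cells kept and 3 were tested along the score. CDH13 (T-cadherin, which has a lipid anchor in place of a cytoplasmic tail) rose from 0.0897 to 0.393 UMIs per 10000 and thus exceeded CDH2, at 0.0418, in the highest tertile. CDH16 fell from 0.0741 to 0.00575. Along the score 1 of the 3 thus rose and 1 fell, beside 20.6% and 20.8% of all genes. Between the experiments, CDH13 and CDH4 were the 2 of 4 tested that passed, where 6.26% of all genes rose and 6.18% fell. Their log2 fold changes were 0.97 and 1.22, and CDH4 lost the call in 4 of 11 alternatives.

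Known repressors of CDH1 and known activators of the epithelial program, which include the splicing regulators ESRP1 and ESRP2, ran opposite to each other. Of 12 repressors, 10 were tested, and 7 rose and 1 (KLF8) fell along the score, where 20.6% of all genes rose and 20.8% fell, with ZEB1 going from 0.0100 to 0.149, ZEB2 from 0.0222 to 0.178, FOXC2 from 0.00800 to 0.0478 and SNAI2 from 0.489 to 2.58 UMIs per 10000. The tertiles of FOXC2 overlapped, with 0.00225 to 0.0138 in the lowest and 0.00634 to 0.110 in the highest. All 10 activators fell, with a median log2 fold change of -3.83, and the steepest were OVOL1 (0.204 to 0.00636), ESRP1 (0.942 to 0.0554), GRHL1 (0.154 to 0.00948) and OVOL2 (0.221 to 0.0140). Between the experiments, where CDH1 fell, 7 of the 10 activators fell and 3 of the 10 repressors tested rose (6.18% and 6.26% of all genes), which were FOXC2, SNAI2 and TWIST2 with log2 fold changes of 1.71, 1.36 and 0.73. The largest falls among the activators were those of GRHL1 (-1.30), ELF3 (-0.99), OVOL2 (-0.91) and EHF (-0.91). FOXC2 lost the call in 3 alternatives, GRHL1 in 2 and OVOL2 in 1. Several of these genes, among them ELF3, ESRP1, OVOL2, SNAI2, ZEB1 and ZEB2, belong to the published score lists and were left out of the score here.

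Genes of cadherin turnover and of the beta-catenin destruction complex were also counted. Of 13 turnover genes tested along the score, 3 rose and 2 fell, beside 20.6% and 20.8% of all genes. Those that rose were the sheddases ADAM17 (0.377 to 0.525 UMIs per 10000) and ADAM10 (0.364 to 0.495) and the endocytic adaptor NUMB (0.464 to 0.626). The recycling GTPases RAB11A (2.01 to 1.30) and ARF6 (1.73 to 1.32) fell. ADAM10 lost its call in 8 of 14 alternatives, NUMB in 4 and ADAM17 in 3. None of the 14 turnover genes tested between the experiments passed edgeR's quasi-likelihood test, where 12.4% of all genes were called. Of the 10 destruction complex genes tested, 1 rose and 0 fell along the score, beside 20.6% and 20.8% of all genes. It was FBXW11, an F-box protein of the beta-catenin ubiquitin ligase (0.324 to 0.460, lost in 4 of 14 alternatives). Between the experiments 0 of the 10 rose and 1 fell, beside 6.26% and 6.18% of all genes. It was TNKS2, a tankyrase that targets axin (0.220 to 0.148, lost in 6 of 11).

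The genes most like each member were ranked by mean rho over the 4 plates. The 8032 genes ranked had been detected in 20% or more of the cells on each plate, and those with the same sign of rho in every plate were kept. CDH1 was most like S100A14 (0.685), RAB25 (0.678), an epithelial recycling GTPase, and MAL2 (0.674), an apical transport protein, and most opposed to TIMP1 (-0.637), FN1 (fibronectin, -0.635) and EMP3 (-0.629). CDH3 was most like CDH1 (0.452), the epithelial adhesion molecule EPCAM (0.443) and S100A14 (0.423), and most opposed to FN1 (-0.419), AKR1B1 (-0.387) and TIMP1 (-0.385). CDH2 gave low values at both ends, with ANGPTL4 (0.229), NT5E (0.227) and MT2A (0.225) against FXYD3 (-0.220), AZGP1 (-0.216) and SPINT2 (-0.206). CTNNA1 was most like PTTG1IP (0.346), ADGRF1 (0.325) and HSPB1 (0.317), CTNNB1 most like EMP3 (0.330), SERPINE2 (0.324) and TMSB10 (0.319), and VCL most like the integrin subunit ITGB1 (0.336), the actin crosslinker FLNA (0.326) and FN1 (0.324). The values describe cells that share libraries and depth, and lower counts give lower rho.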

How the data were processed

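Single MCF10A cells of 4 plates (2 low-resolution and 2 high-resolution patches) were analysed from SORT-seq expected counts. The authors deposited, per gene and well, an expected count that adjusts the UMIs seen for repeated draws of 1 UMI sequence and is not scaled for depth. Per the submitters' processing notes, STAR 2.7.3a, hg38 and Seurat 4 were used, and the annotation is not given in the sources used here. Inverting this adjustment (4096 UMI sequences) gave integers within a tolerance of 1e-09, which served for thinning and shares. Plates held 1.17e+07 to 1.50e+07 counts. The limits were 2000 to 9000 features and less than 40% mitochondrial counts. Cells within them were kept and log-normalized to 10000. Doublets were not called beyond the limit of 9000 features. The members and gene lists were chosen with earlier results of these data known.

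EMT scores (M minus E) were computed per experiment with a GSVA implementation written for this work (Gaussian kernel), using 59 E genes and 93 (low resolution) or 90 (high resolution) M genes. Counts summed per plate, or per plate and tertile, were rounded and tested with edgeR 4.0.16 (quasi-likelihood, TMM, filterByExpr, Benjamini-Hochberg, threshold 0.05), with DESeq2 1.42.0 as an alternative. The SE of a fold change is its size over the root of F, and 95% intervals are normal ones. Plates were compared with exact sign-flip permutation tests. Cell cycle phase was called with scanpy 1.11.5. The edgeR fits between experiments and along the score were run on simulated counts with known changes, as was the EMT score. At a dispersion of 0.02 these fits recovered 65% and 77% of 2-fold changes and 96% and 99% of 4-fold changes. They made 9 and 8 false calls. The difference between experiments along the score was not simulated. Named genes are all members, up to 4 called genes per other list and direction with the largest fold change, and the 3 genes most like each member (for cadherins, also the 3 most opposed). The 2 plates of an experiment are biological replicates per the series' design. Some genes that the rule would name are not reported here.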

Additional observations from a re-analysis of the deposited data

Results flagged for a closer look

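The fall of CDH1 from the lowest to the highest tertile of the EMT score differed between the experiments in a test of the difference itself, with -1.34 on the log2 scale (high minus low resolution). Its direction was the same in 12 of 12 alternatives and its call was lost in 8 of them.

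Wells outside the limits on cells also held member UMIs. The 167 wells over the mitochondrial limit held 555 UMIs of CDH1, 146 of CDH3, 1580 of CTNNA1, 152 of CTNNB1 and 349 of VCL, and none of CDH2, which allows up to 0.00572 UMIs per 10000. Per plate, CDH1 ranged there from 0.759 to 1.23 UMIs per 10000, above the level in the kept cells of the same plate. The 222 wells with under 2000 features held 34 UMIs of CDH1, 16 of CDH3, 142 of CTNNA1, 22 of CTNNB1 and 42 of VCL. The source of these counts was not tested.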

How the results depend on the processing

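Along the score, CDH1, CDH3, CTNNA1, CTNNB1 and VCL kept their direction and call in 14 of 14 alternatives, and CDH2 in the 12 that could test it, since it was filtered out at 10000 UMIs and among G1 cells. CDH1 stayed called between the experiments in 11 of 11 alternatives, from -0.77 to -0.64, and no other member was called in any. CDH2 had no DESeq2 adjusted p there and was filtered out at 10000 UMIs.

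The number of genes called between the experiments was 1547, against 1009 at 10000 UMIs and 982 to 1172 without a plate. The replicate numbers did not pair the plates (correlation of deviations -0.024 over genes), and a fit with the replicate block called 2023 genes. Along the score 4677 genes were called, 2965 without the plate as a block (no replicate block), 2833 at 10000 UMIs and 3893 to 3966 without a plate. The difference between experiments along the score, tested after seeing the data, called 286 genes, against 112 among G1 cells, 498 with a mean z-score, 507 with no filter, 58 at 10000 UMIs and 104 to 324 without a plate. For CDH3 it passed with the mean z-score (-1.15, adjusted p = 0.0402, edgeR) and without the mitochondrial limit (-1.08, adjusted p = 0.0490).

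The mean rho of CDH1 with CDH3 was 0.452 at full depth (0.428 to 0.495 without a plate) and fell to 0.198 at 10000 UMIs. With CDH2 it was -0.168 at full depth (-0.184 to -0.157 without a plate) and -0.096 at 10000 UMIs. Cells with CDH2 held 0.258 UMIs per 10000 less CDH3 at 10000 UMIs (-0.314 to -0.214 without a plate) and -0.122 at full depth, a setting added after seeing the data. Shares of cells depend on depth: the mean share with CDH1 was 20.2% at 5000, 36.3% at 10000, 49.3% at 20000 UMIs and 56.9% at full depth, with CDH2 0.599%, 1.77%, 3.31% and 5.80%, with CDH3 12.4%, 22.7%, 34.6% and 48.6%, and with CDH1 and CDH3 4.14%, 12.2%, 23.1% and 38.3%. Both CDH1 and CDH2 were found in 0.628% of cells at 20000 UMIs and 1.39% at full depth.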

Other observations

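Among G1 cells, CDH1 was at 0.881 and 0.745 UMIs per 10000 in low-resolution plates and at 0.474 and 0.436 in high-resolution plates. Among G2/M cells it was at 0.577 and 0.688 against 0.468 and 0.337, again without overlap. Among S cells the plates overlapped, at 0.551 and 0.611 against 0.393 and 0.554. CTNNA1 was highest in G1 cells of each plate, at 4.30, 3.96, 3.58 and 3.51 UMIs per 10000, and at 3.43, 3.13, 3.36 and 3.34 in S. No test was made of these values, and phase was called from expression.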
